A study of Homo sapiens with 12 samples.

Results

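Oxidative phosphorylation subunits were followed through human liver spheroid co-cultures exposed to total parenteral nutrition (TPN). The genes were those whose KEGG annotation in the expression table names the oxidative phosphorylation pathway, without the vacuolar proton pump genes whose symbols start with ATP6V. This left 94 of the 16705 genes of the table. By symbol, 40 belonged to complex I, 4 to complex II, 10 to complex III, 14 to complex IV and 15 to complex V, 4 were assembly factors of complex IV, and 7 had no complex. The mitochondrially encoded subunits are not among the rows, so each value below concerns a nuclear gene.

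The spheroids were mostly C3A cells, which derive from the hepatoma line HepG2 and keep hepatocyte functions, mixed with fewer LX-2 cells, a line of hepatic stellate cells. They were left untreated or exposed to 1% TPN, a clinical mixture of amino acids with electrolytes, glucose, lipid emulsion, trace elements and vitamins, for 24 h or 144 h, with exposure starting once the spheroids had formed, so that the 144 h groups were also older in culture. The 4 groups, with and without TPN at each time, had 3 libraries apiece, and a library was made from many pooled spheroids. As a model these are tumour-derived and immortalized cells, not primary liver tissue.

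Oxidative phosphorylation takes place in the inner mitochondrial membrane. Complex I takes electrons from NADH and complex II from succinate, ubiquinone carries them to complex III, cytochrome c carries them on to complex IV, and complex IV passes them to oxygen. The proton gradient built by complexes I, III and IV drives the rotary ATP synthase, complex V. Hepatocytes hold many mitochondria and use this ATP for gluconeogenesis, urea synthesis and protein secretion.

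The nuclear genes of the respiratory chain are known to share regulators, among them nuclear respiratory factor 1 (NRF1), the ETS factor GABP and YY1. Core sequences of these factors were searched on both strands in the 300 bases from 250 before to 50 after each annotated start in RefSeq (GRCh38.p14), where 76 of the 94 genes were matched. The NRF1 core GCGCANGC was present in 39.5% of these promoters and in 12.5% of the 27305 promoters of the same length on the main chromosomes. The ETS core CCGGAAG was present in 28.9% against 10.7%, and the YY1 core GCCATNTT in 30.3% against 6.82%. At least 1 of the cores was found in 63.2% of the matched oxidative phosphorylation promoters and in 25.5% of all promoters. Matches of different cores can share end bases, and the near-palindromic NRF1 core can match both strands at neighbouring positions. These are matches of letters only, and no binding was measured. The promoters used for comparison were not matched to these genes for expression, coding status or base composition.

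A few promoter stretches are shown, each the 250 bases before the start read 5′ to 3′ along the gene, because the genes behind them carry the results below. SDHA (chr5:218070-218319 on the plus strand) and ATP5F1C (chr10:7787927-7788176 on the plus strand) were lower after 144 h of TPN, UQCRQ (chr5:132866392-132866641 on the plus strand) had the largest fall with time in culture, and ATP5MC1 (chr17:48892537-48892786 on the plus strand) was higher with TPN at both times. Capitals mark matches to the NRF1 or ETS cores.
SDHA: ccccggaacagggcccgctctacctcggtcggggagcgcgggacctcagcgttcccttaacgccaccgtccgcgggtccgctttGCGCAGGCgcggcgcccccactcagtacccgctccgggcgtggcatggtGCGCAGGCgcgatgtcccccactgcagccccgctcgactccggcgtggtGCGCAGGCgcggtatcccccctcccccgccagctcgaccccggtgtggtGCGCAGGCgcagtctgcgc
ATP5F1C: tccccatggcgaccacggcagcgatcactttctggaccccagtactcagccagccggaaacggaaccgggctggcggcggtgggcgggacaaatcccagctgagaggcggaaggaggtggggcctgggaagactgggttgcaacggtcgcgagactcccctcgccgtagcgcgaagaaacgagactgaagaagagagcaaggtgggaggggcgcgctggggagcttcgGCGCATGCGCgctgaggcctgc
UQCRQ: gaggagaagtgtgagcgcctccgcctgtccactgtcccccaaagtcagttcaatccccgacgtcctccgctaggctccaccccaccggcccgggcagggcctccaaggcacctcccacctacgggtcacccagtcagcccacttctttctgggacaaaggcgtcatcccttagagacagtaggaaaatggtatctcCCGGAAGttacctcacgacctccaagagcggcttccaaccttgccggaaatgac
ATP5MC1: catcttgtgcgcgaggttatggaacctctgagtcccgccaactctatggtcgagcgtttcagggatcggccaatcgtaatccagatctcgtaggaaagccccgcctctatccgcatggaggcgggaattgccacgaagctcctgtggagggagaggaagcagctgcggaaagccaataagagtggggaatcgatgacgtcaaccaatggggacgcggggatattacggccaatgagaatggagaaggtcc
The SDHA stretch held 4 NRF1 matches spaced by 49 bases, the first base of the last one lying 19 bases before the start. The ATP5F1C stretch held a pair of overlapping NRF1 matches that start 2 bases apart, UQCRQ held 1 ETS match, and none of these cores was found in the ATP5MC1 stretch. Of the promoters of genes that fell after 144 h of TPN, 16 of 25 held at least 1 core, beside 28 of 42 among those not called and 3 of 7 among those that rose.

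Expression was given as FPKM, fragments scaled to the length of the transcript and the size of the library, which permits levels of different genes to be compared per length. The 94 genes spanned a wide range, from a mean of 0.0217 FPKM for ATP4A, the gastric proton pump, to 761 FPKM for ATP5ME, the e subunit in the membrane part of ATP synthase. The most abundant gene of complex I was NDUFB8 at 252 FPKM, of complex II SDHA at 126, of complex III UQCRH at 439 and of complex IV COX6A1 at 678. With a mean of at least 0.5 FPKM over the 12 libraries, 89 of the 94 genes were tested. The other 5 were ATP4A, COX4I2, COX6B2, COX7A1 and UQCRHL, a copy of UQCRH. Genes with close copies, such as UQCRH, SDHA and the ATP5MC genes, may share fragments, and NDUFC2-KCTD14 is a readthrough of NDUFC2, so the division between such genes is uncertain.

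Library sums of FPKM ranged from 561657 to 583722. Depth, estimated from the steps between low FPKM values, was about 1.8e+07 fragments per library. At that depth, 1 FPKM on a transcript of 687 bases, the median length of the oxidative phosphorylation genes, corresponds to about 8.9 fragments. The markers were checked against the labelled cell types. All 8 hepatocyte markers were expressed, ALB at a mean of 4392 FPKM in untreated 24 h spheroids. Of 11 stellate markers 8 were tested, whereas DES, LUM and DCN were at or near 0, and COL1A1 had a mean of 15.1 FPKM in untreated 24 h spheroids and 1.92 in untreated 144 h spheroids.

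The summed FPKM of the 94 genes was 2.40% to 2.43% of the library in untreated 24 h spheroids and 2.32% to 2.39% in TPN 24 h spheroids. It was 1.98% to 2.01% in untreated 144 h spheroids and 1.87% to 1.89% in TPN 144 h spheroids. The ranges of the 4 groups did not overlap, and the largest step was between the 2 times. In these bulk libraries fewer cells of a type and less RNA per cell cannot be told apart.

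By complex, the sum for complex I went from 4256 ± 70.6 FPKM (SD, n = 3) in untreated 24 h to 3390 ± 69.9 in untreated 144 h spheroids, and that for complex V from 4209 ± 83.8 to 3465 ± 76.4. With TPN at 144 h the complex V sum was 3138 ± 47.6, below all untreated 144 h libraries, and that of complex II was 337 ± 8.26 against 364 ± 3.08. The complex III sum was 1079 ± 6.998 against 1108 ± 20.9. Its groups did not overlap but nearly touched, at 1085.14 in the highest TPN library and 1085.33 in the lowest untreated one. The sums of complex I, at 3284 ± 75.0 and 3390 ± 69.9, and of complex IV, at 2602 ± 44.01 and 2633 ± 52.0, overlapped between the groups.

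**Figure D1:**
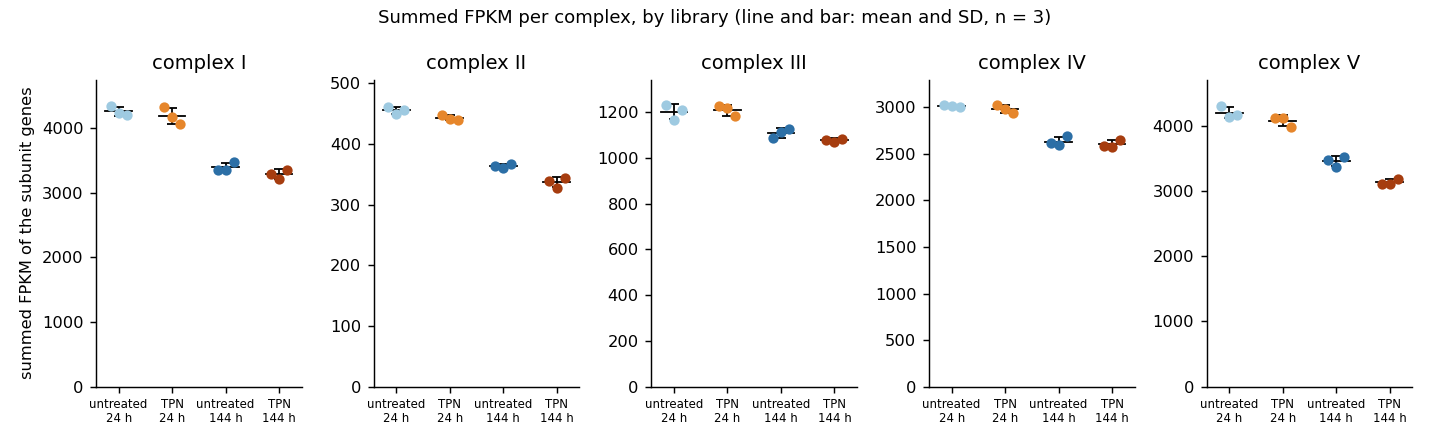
Summed FPKM of the subunit genes of complexes I to V (vertical axes, starting at 0) in the 12 libraries by group, with the mean and SD of 3 libraries. The untreated 144 h libraries lie below the untreated 24 h libraries in all 5 panels, and the TPN 144 h libraries lie below the untreated 144 h libraries for complexes II, III and V, for complex III by less than the width of a point.

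The first comparison asked which of these genes responded to TPN within 24 h. Few did, 2 rose and 1 fell of the 89 tested, where 5.04% of all 11713 genes tested rose and 5.46% fell at an adjusted p below 0.05. A further threshold on size, an absolute log2 fold change above 0.58, was passed by 0 of them and by 0.914% of all genes. At an unadjusted p below 0.05 the count was 12 of 89, or 13.5%, where 23.9% of all genes passed that level. The median log2 fold change was -0.02 over the 89 genes and 0.00 over all genes. With the libraries scaled to the same sum, 2 rose and 4 fell, where 4.36% of all genes rose and 5.80% fell.

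NDUFA4L2, a paralog of NDUFA4 that is known as a hypoxia-induced gene and is reported to lower complex I activity, had the largest change at 24 h. The gene (NCBI gene 56901, chr12:57234903-57240762 on GRCh38.p13) was at 9.67, 9.99 and 9.33 FPKM in the untreated libraries and at 14.02, 14.59 and 12.03 FPKM with TPN. All TPN libraries were above all untreated ones, a 1.40-fold difference in mean FPKM (log2 fold change 0.48, SE 0.06, limma adjusted p = 0.000219). ATP5MC1, 1 of 3 genes for the same mature c subunit of the ATP synthase rotor, was at 230, 220 and 237 FPKM untreated and at 249, 261 and 248 FPKM with TPN (log2 fold change 0.14, SE 0.04, adjusted p = 0.0269). NDUFA11, an accessory subunit of the membrane arm of complex I, was at 247, 256 and 245 FPKM untreated and at 222, 229 and 234 FPKM with TPN (log2 fold change -0.13, SE 0.03, adjusted p = 0.0262). The groups did not overlap for either gene. Both calls were lost without untreated 24 h replicate 1 or 2 or TPN 24 h replicate 1 or 2, and over all alternatives their adjusted p reached 0.115 and 0.109.

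After 144 h of TPN, 31 of the 89 genes fell and 8 rose, where 28.3% of all genes tested fell and 24.2% rose. The share that fell was 34.8%, not far from that of all genes, and the share that rose was 8.99%. The changes were small, and the threshold on size was passed by 0 of the 89 genes and by 9.48% of all genes. The median log2 fold change was -0.07 over the 89 genes and -0.02 over all genes. Counts under the other scalings ran from 24 to 40 genes that fell and from 8 to 10 that rose, where 22.5% to 24.4% of all genes rose. With quantile normalization 24 of the 89 genes fell, a share below the 28.8% of all genes that did. With libraries scaled to the same sum 40 of the 89 fell, a share above the 30.0% of all genes. Among the 39 called genes, the TPN and untreated libraries overlapped for NDUFA8, NDUFB3, NDUFS3, NDUFS7, COX5A and COX8A. Overlap was not counted over all genes tested, and these genes were already chosen by the test.

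In complex V, ATP synthase, 6 of 15 genes fell with TPN at 144 h and 1 rose, and in its catalytic head, the F1 part, 4 of 5 fell. ATP5F1B, the catalytic beta subunit (NCBI gene 506, chr12:56638175-56645984), was at 557, 552 and 558 FPKM in untreated 144 h spheroids and at 486, 465 and 490 FPKM with TPN (log2 fold change -0.21, SE 0.03, adjusted p = 1.27e-05). All TPN libraries were below all untreated ones. The alpha subunit gene ATP5F1A had a log2 fold change of -0.20 (SE 0.03, adjusted p = 0.000156), the gamma subunit gene ATP5F1C -0.21 (SE 0.03, adjusted p = 3.50e-05) and the delta subunit gene ATP5F1D -0.19 (SE 0.05, adjusted p = 0.00310). ATP5F1E, the epsilon subunit gene, was at 0.02 (adjusted p = 0.784). These subunits other than ATP5F1B were named after their values were seen, to complete the F1 part. In the peripheral stalk 1 of 4 genes fell, which was ATP5PB with a log2 fold change of -0.16 (also named after its value was seen). In the membrane part, ATP5ME fell from 733, 711 and 746 FPKM to 594, 603 and 613 FPKM (log2 fold change -0.27, SE 0.05, adjusted p = 0.000354), whereas ATP5MC1 rose from 136, 131 and 139 FPKM to 146, 142 and 152 FPKM (log2 fold change 0.11, SE 0.04, adjusted p = 0.0194). The call of ATP5MC1 was lost without untreated 144 h replicate 2 or TPN 144 h replicate 3, with an adjusted p of up to 0.0851.

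In complex I, 15 of 40 genes fell with TPN at 144 h and 2 rose. Of its 7 nuclear core subunits, which hold the NADH site and the iron-sulfur clusters, 5 fell. NDUFS8, a subunit with iron-sulfur clusters, had a log2 fold change of -0.28 (SE 0.07), NDUFV1, the NADH-binding subunit, -0.15 (SE 0.04), and NDUFS1, with iron-sulfur clusters, -0.14 (SE 0.04). NDUFS7 had -0.21 (SE 0.06), a call that was lost without TPN 144 h replicate 2 (adjusted p = 0.0592). NDUFS3 had -0.11 (SE 0.04), a call that was lost without untreated 144 h replicate 2 or 3 or TPN 144 h replicate 1 or 2, with an adjusted p of up to 0.123 over all alternatives. NDUFV2 was at 0.05 (adjusted p = 0.233). These core subunits were named after their values were seen.

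Among the 31 accessory subunits of complex I, 9 fell and 2 rose. NDUFB1, a small subunit of the membrane arm, was at 113, 106 and 105 FPKM untreated and at 83.7, 84.5 and 82.9 FPKM with TPN (log2 fold change -0.37, SE 0.04, adjusted p = 7.52e-06). NDUFB10, also of the membrane arm, was at 86.4, 94.7 and 94.7 FPKM untreated and at 74.8, 75.7 and 74.8 FPKM with TPN (log2 fold change -0.29, SE 0.04, adjusted p = 4.54e-05). For both genes the groups did not overlap. NDUFA4, placed with complex I by its symbol but known as part of complex IV, also fell (log2 fold change -0.15, SE 0.05, adjusted p of up to 0.0689 over all alternatives). NDUFS4, an accessory subunit needed for a stable complex, fell (log2 fold change -0.22, SE 0.06, adjusted p = 0.00448). NDUFS5 rose from 194, 202 and 204 FPKM to 233, 222 and 219 FPKM (log2 fold change 0.17, SE 0.04), and NDUFB2 rose with a log2 fold change of 0.13 (SE 0.03). NDUFA4L2 stood at 53.0, 52.1 and 53.4 FPKM untreated and at 53.35, 55.97 and 60.01 FPKM with TPN, which did not pass the test (log2 fold change 0.09, SE 0.06, adjusted p = 0.224).

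In complex II, which is also succinate dehydrogenase of the citric acid cycle, 3 of 4 genes fell. SDHA, its flavoprotein, was at 113, 122 and 120 FPKM untreated and at 107, 101 and 108 FPKM with TPN (log2 fold change -0.17, SE 0.03, adjusted p = 0.000813). The membrane anchor SDHC had a log2 fold change of -0.12 (SE 0.03), and the anchor SDHD -0.12 (SE 0.04), a call that was lost without untreated 144 h replicate 1 or 3 (adjusted p of up to 0.0824 over all alternatives). SDHB, the iron-sulfur subunit, did not pass the test.

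In complex III, 3 of the 9 genes tested fell and 1 rose. CYC1, the heme-bearing cytochrome c1 that hands electrons to cytochrome c, was at 176, 203 and 192 FPKM untreated and at 150, 143 and 143 FPKM with TPN. The groups did not overlap (log2 fold change -0.39, SE 0.04, adjusted p = 4.04e-06). UQCR11, a small accessory subunit, had a log2 fold change of 0.15 (SE 0.05, adjusted p = 0.0326), and its call was lost without untreated 144 h replicate 1 or TPN 144 h replicate 3, with an adjusted p of up to 0.146 over all alternatives.

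In complex IV, 3 of the 11 tested genes fell, 1 rose and the median log2 fold change was 0.00, with its sign depending on the scaling. COX7A2L, a factor that joins complexes III and IV into supercomplexes, rose from 80.7, 87.9 and 86.8 FPKM to 107, 95.7 and 100 FPKM (log2 fold change 0.25, SE 0.05, adjusted p = 0.000711). COX5A, COX6A1 and COX8A had log2 fold changes of -0.14, -0.09 and -0.09. Each lost its call without the filter, without the intensity trend and when some single libraries were left out. COX5A and COX6A1 also lost it with quantile normalization. Over all alternatives the adjusted p values reached 0.146, 0.166 and 0.131. The assembly factors of complex IV moved in both directions. COX11 (NCBI gene 1353, chr17:54951467-54968785), which delivers copper to the catalytic subunit, was at 76.2, 77.2 and 75.2 FPKM untreated and at 54.9, 53.5 and 59.6 FPKM with TPN, the largest fall of the 89 genes (log2 fold change -0.44, SE 0.04, adjusted p = 1.41e-06). COX15, which makes heme A, rose from 22.3, 19.7 and 20.2 FPKM to 27.4, 24.6 and 23.4 FPKM (log2 fold change 0.27, SE 0.06, adjusted p = 0.00172). COX10, which acts just before COX15, and the copper chaperone COX17 did not pass the test.

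Of the 6 tested genes without a complex, 2 rose at 144 h. CYCS, the cytochrome c gene, had a log2 fold change of 0.14 (SE 0.04, adjusted p = 0.00967). PPA2, the mitochondrial pyrophosphatase, was at 9.27, 8.25 and 9.18 FPKM untreated and at 10.8, 10.3 and 10.1 FPKM with TPN (log2 fold change 0.23, SE 0.06, adjusted p = 0.00510). Its cytosolic counterpart PPA1, the phosphatase gene LHPP and the proton pump genes TCIRG1 and ATP6AP1, which KEGG also places in the pathway, did not pass the test.

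**Figure D2:**
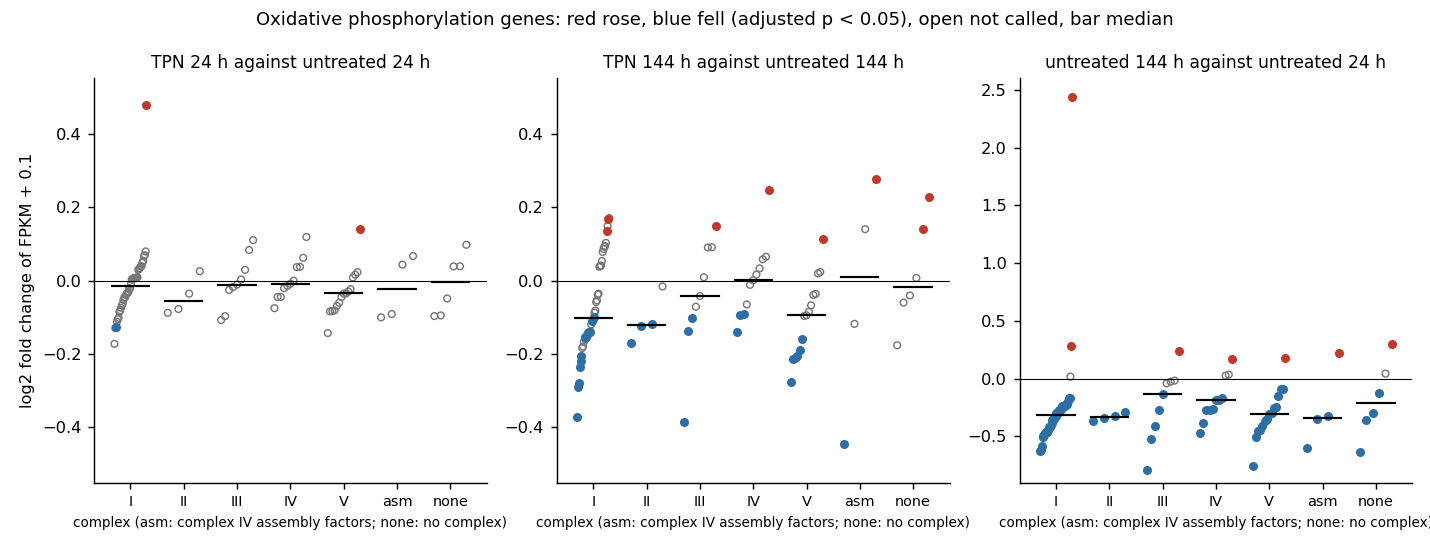
Log2 fold changes of FPKM + 0.1 (vertical axes) of the 89 tested genes by complex, in 3 comparisons. Filled points passed an adjusted p of 0.05 (red higher, blue lower), open points did not, and bars are medians; the third axis is longer because NDUFA4L2 reached 2.44, and most points of that panel lie below 0.

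The design also allowed the effect of TPN at 144 h to be set against that at 24 h in 1 test. The difference passed for 15 of the 89 genes. Of the 89 genes, 12, or 13.5%, passed with a negative difference, where 16.3% of all genes tested did. A positive difference passed for 3, or 3.37%, where it passed for 14.1% of all genes. The threshold on size was passed by 0 of the 89 genes and by 5.87% of all genes. The median difference was -0.04 over the 89 genes and -0.02 over all genes. For CYC1 the difference was -0.47 (SE 0.06, adjusted p = 6.44e-05), from a log2 fold change of 0.08 at 24 h to -0.39 at 144 h. For NDUFA4L2 it was -0.39 (SE 0.09, adjusted p = 0.00500), the rise at 24 h being larger than the difference at 144 h. COX11 had -0.34 (SE 0.06), NDUFB1 -0.26 (SE 0.06) and ATP5F1B -0.23 (SE 0.04). PPA2 had 0.32 (SE 0.08), NDUFS5 0.20 (SE 0.05) and NDUFB2 0.18 (SE 0.04). In complex V the 3 genes that passed were the F1 genes ATP5F1A, ATP5F1B and ATP5F1C.

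**Figure D3:**
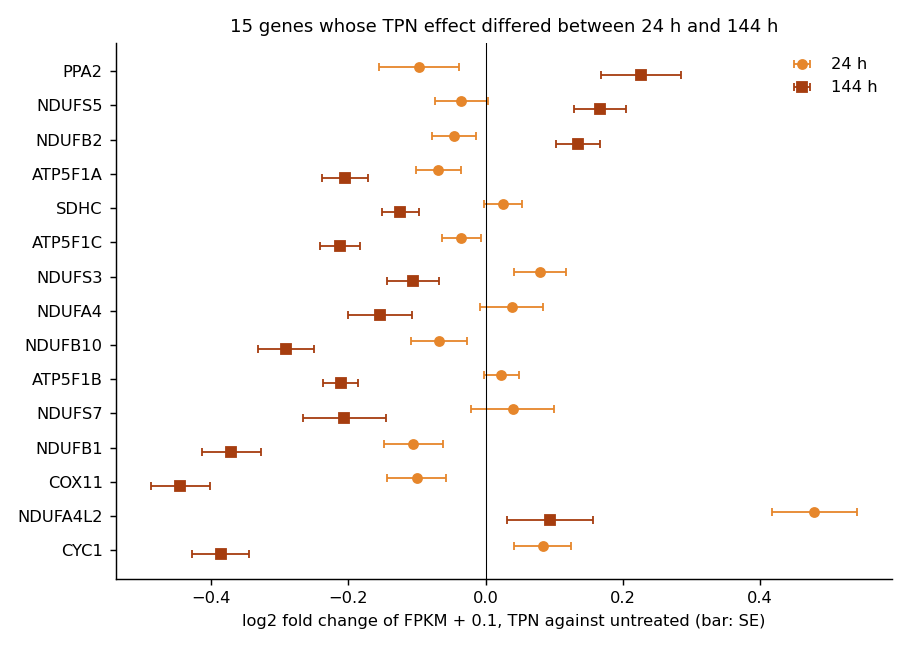
Log2 fold change of FPKM + 0.1, TPN against untreated (horizontal axis, bars are SE), at 24 h (circles) and 144 h (squares) for the 15 genes whose TPN effect differed between the times. For 12 genes the 144 h value lies to the left of the 24 h value and for PPA2, NDUFS5 and NDUFB2 to the right.

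Markers of both cell types moved with TPN as well. The summed FPKM of the 8 hepatocyte markers was 12829 to 13790 in untreated 144 h spheroids and 10071 to 10787 with TPN, and 6 of 8 fell, ALB and HNF4A among them with log2 fold changes of -0.65 and -0.35. The sum of the 11 stellate markers was 73.5 to 77.4 untreated and 69.5 to 72.0 with TPN, and 4 of the 8 tested fell. Most of this sum came from ACTA2, at 45.2 to 50.3 FPKM untreated, and SPARC, at 19.8 to 21.5 FPKM. Over the 8 tested stellate markers the median log2 fold change was -0.39. At 24 h the hepatocyte sum was 11641 to 11992 untreated and 10730 to 10770 with TPN, and the stellate sum 124 to 129 and 111 to 112. The part of such shifts in the values of the respiratory chain genes was not tested.

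The last comparison, untreated 144 h against untreated 24 h spheroids, followed the same genes through time in culture without TPN. It shares the untreated 144 h libraries with the 144 h TPN comparison. Of the 89 genes, 75 were lower at 144 h and 7 were higher, where 52.4% of all genes were lower and 20.1% higher. Past the threshold on size were 8, or 8.99% as a share, against 19% of all genes. The median log2 fold change was -0.30 over the 89 genes and -0.18 over all genes. This general shift depended on scaling. With median ratio scaling, which brought the median of all genes to -0.01, 44 of the 89 were lower and 14 higher, where 33.7% of all genes were lower and 33.2% higher. The median of the 89 genes lay 0.11 below that of all genes as reported and 0.11 below it with median ratio scaling.

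By complex, 37 of 40 genes were lower in complex I, 4 of 4 in complex II, 5 of 9 in complex III, 8 of 11 in complex IV and 14 of 15 in complex V. With median ratio scaling the numbers were 22, 4, 3, 2 and 9, while 3, 0, 4, 3 and 1 were higher. In complexes III and IV more genes were then higher than lower. The median log2 fold changes were -0.31, -0.33, -0.13, -0.18 and -0.30, and with median ratio scaling -0.13, -0.16, 0.05, 0.00 and -0.13, so that the direction for complex III turned. Of the 75 genes that were lower, 44 kept this call with median ratio scaling, and 8 others, among them ATP5F1A, NDUFS1 and UQCRH, turned in sign without passing the test. All 7 genes that were higher kept their call under the scaling alternatives.

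NDUFA4L2 had the largest change of the 89 genes. From the values given above, 9.33 to 9.99 FPKM at 24 h and 52.1 to 53.4 FPKM at 144 h in untreated spheroids, it was 5.47-fold higher (log2 fold change 2.44, SE 0.06, adjusted p = 2.59e-12), while its paralog NDUFA4 was at 46.7, 44.9 and 46.7 FPKM and at 36.9, 37.8 and 40.4 FPKM. NDUFA4L2 therefore made up 16.7% to 18.2% of the summed FPKM of the pair in untreated 24 h libraries, 20.7% to 24.0% in TPN 24 h, 56.9% to 58.9% in untreated 144 h and 60.5% to 63.3% in TPN 144 h libraries. COX4I2, another isoform known to respond to low oxygen, was listed at 0 in all untreated 24 h libraries and at 0.79, 0.86 and 0.24 FPKM in the untreated 144 h libraries. It was under the filter and was not tested, and the abundant isoform COX4I1 was at 420 to 462 FPKM and at 448 to 461 FPKM in the same groups.

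The other genes that were higher at 144 h without TPN were LHPP with a log2 fold change of 0.30 (SE 0.10), NDUFS4 with 0.28 (SE 0.06), CYC1 with 0.24 (SE 0.04), COX10 with 0.22 (SE 0.05), ATP5MC2 with 0.18 (SE 0.04) and COX7A2L with 0.17 (SE 0.05). The call of LHPP was lost without untreated 24 h replicate 2 or untreated 144 h replicate 2, with an adjusted p of up to 0.0573. CYC1 and NDUFS4 were thus higher with time in culture and lower with TPN at 144 h, 2 contrasts that share the untreated 144 h libraries.

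The largest fall was that of UQCRQ, a small subunit of complex III also known as its ubiquinone-binding protein QP-C (NCBI gene 27089). It was at 47.1, 47.7 and 50.4 FPKM at 24 h and at 26.3, 26.9 and 30.7 FPKM at 144 h (log2 fold change -0.79, SE 0.06, adjusted p = 5.87e-08). ATP5MC1 fell from 230, 220 and 237 FPKM to 136, 131 and 139 FPKM (log2 fold change -0.76, SE 0.04), whereas ATP5MC2 rose, and ATP5MC1 contributed 30.9% to 33.5% of the summed FPKM of the 3 c subunit genes at 24 h and 20.8% to 21.7% at 144 h. NDUFB10 fell from 138, 146 and 143 FPKM to 86.4, 94.7 and 94.7 FPKM (log2 fold change -0.63, SE 0.04). PPA2, NDUFB2, COX15 and NDUFB3 had log2 fold changes of -0.64, -0.62, -0.60 and -0.59. Of these, PPA2, NDUFB2, COX15 and ATP5MC1 were higher with TPN at 144 h than without, again against the shared untreated 144 h libraries.

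**Figure D4:**
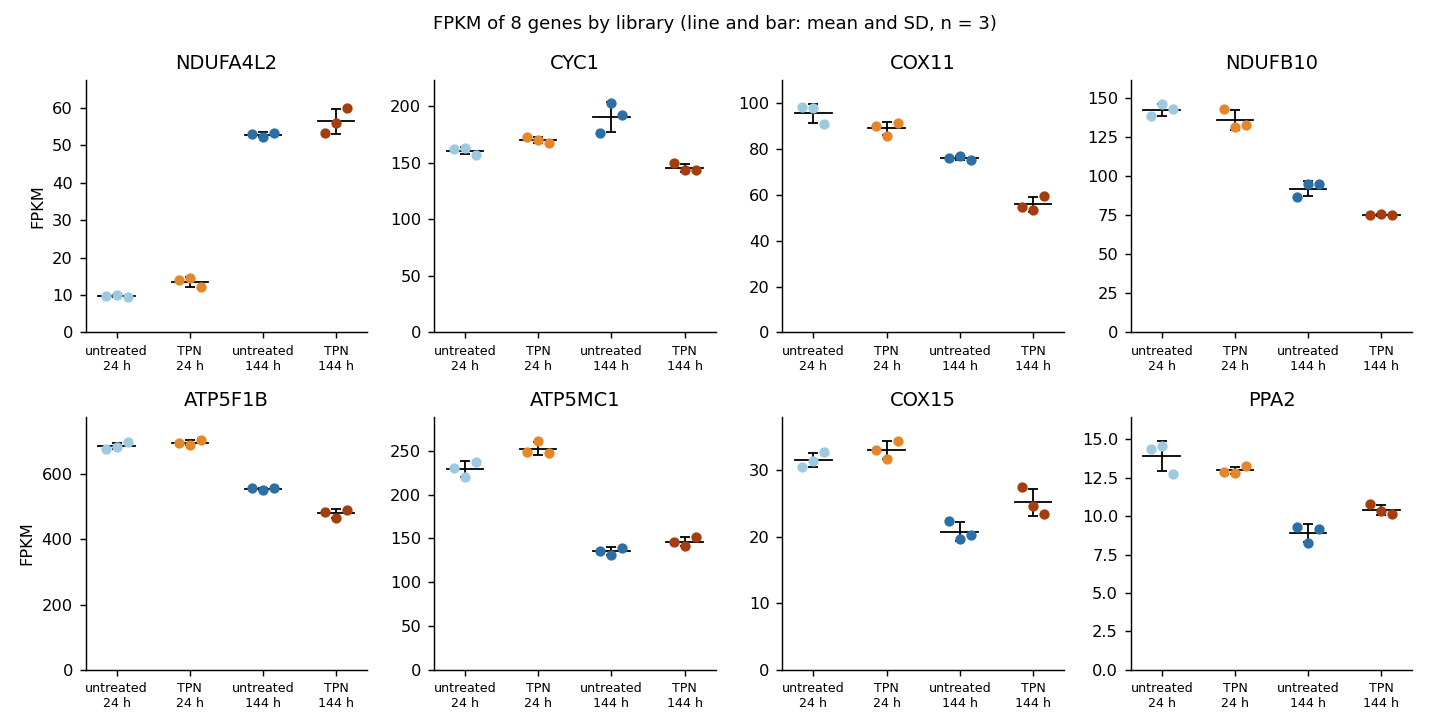
FPKM (vertical axes, starting at 0) of 8 genes in each of the 12 libraries by group, with the mean and SD of 3 libraries. NDUFA4L2 is above 50 FPKM in all 144 h libraries and below 15 in all 24 h libraries, CYC1, COX11, NDUFB10 and ATP5F1B are lower with TPN at 144 h, and ATP5MC1, COX15 and PPA2 are higher with TPN at 144 h.

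Over this time the stellate marker sum went from 124 to 129 FPKM to 73.5 to 77.4 FPKM, 7 of the 8 tested stellate markers fell, and the hepatocyte sum went from 11641 to 11992 FPKM to 12829 to 13790 FPKM. Their part in the fall of the respiratory chain genes was not tested. The 78 mitochondrial ribosomal protein genes, which are nuclear genes for another mitochondrial machine, had 71 lower, 1 higher and a median of -0.42. The 82 tested cytosolic ribosomal protein genes had 6 lower, 75 higher and a median of 0.38. Of all genes, 52.4% were lower and 20.1% higher. Neither set of ribosomal protein genes was counted with median ratio scaling, with which 33.7% of all genes were lower and 33.2% higher. With TPN at 144 h, 34.6% of the mitochondrial ribosomal protein genes fell and 6.41% rose, with a median of -0.07. The oxidative phosphorylation genes had 34.8%, 8.99% and -0.07, and the cytosolic ribosomal protein genes 18.3%, 2.44% and -0.03. A negative difference between the times passed for 28.2% of the mitochondrial ribosomal protein genes and 13.5% of the oxidative phosphorylation genes.

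The genes that build, feed and surround the respiratory chain were described from lists of their own, to be read beside the 28.3% of all genes that fell and the 24.2% that rose with TPN at 144 h. At 24 h, 5 of the 135 genes of these lists passed the test, 1.48% lower and 2.22% higher where 5.46% and 5.04% of all genes were. They were IDH2 (log2 fold change -0.18) and CS (-0.10) of the citric acid cycle, which fell, and the complex II factor SDHAF4 (0.35), the mitochondrial creatine kinase CKMT2 (0.64) and the cardiolipin synthase CRLS1 (0.12), which rose. Among assembly factors at 144 h of TPN, 5 of 19 for complex I fell and 2 rose, with ACAD9 (log2 fold change -0.60, SE 0.06), FOXRED1 (-0.46, SE 0.05) and NDUFAF3 (-0.40, SE 0.04) leading. For complex V, 4 of 6 fell and 0 rose, among them ATPAF1 (-0.26, SE 0.04), a chaperone of the F1 beta subunit. For complex IV, apart from the factors above, 4 of 24 fell and 7 rose, with COX14 at 0.43 (SE 0.07), COX19 at 0.38 (SE 0.07) and COA3 at -0.35 (SE 0.03). For complex III 2 of 7 fell, UQCC2 and UQCC3, and for complex II SDHAF3 rose (0.48, SE 0.09) and SDHAF4 fell (-0.23, SE 0.09).

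Genes that supply electrons were split at 144 h of TPN. In the citric acid cycle list, with the pyruvate dehydrogenase genes, 10 of 18 fell and 1 rose, including FH, fumarase (-0.41, SE 0.05), IDH2 (-0.34, SE 0.03) and SUCLG1 (-0.31, SE 0.03). Of the 7 tested genes that pass electrons to ubiquinone or cytochrome c by other routes, 3 rose and 2 fell. ETFDH, which takes electrons from fatty acid oxidation, had a mean of 6.60 FPKM untreated and 9.73 FPKM with TPN (0.55, SE 0.06, adjusted p = 5.91e-06), and SQOR, which oxidizes sulfide, had 10.6 FPKM and 14.8 FPKM (0.48, SE 0.06). Both differed between 24 h and 144 h in the test of the difference, by 0.59 and 0.53. For ubiquinone synthesis 5 of 13 fell and 0 rose, COQ6 with -0.42 (SE 0.07) among them.

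At the membrane, UCP2, an uncoupling protein family carrier, fell from a mean of 11.2 FPKM to 6.78 FPKM with TPN at 144 h (log2 fold change -0.72, SE 0.07, adjusted p = 1.34e-06). Of the 10 tested genes for ATP and ADP exchange and uncoupling, 4 fell and 3 rose, the ADP/ATP carrier SLC25A5 with -0.21 and the outer membrane channel VDAC1 with 0.21 among them. Among 15 tested regulators of mitochondrial biogenesis 4 rose and 3 fell, with TWNK, the mitochondrial DNA helicase, at 0.29 (SE 0.04) and POLRMT, the mitochondrial RNA polymerase, at -0.14 (SE 0.03). Of 12 cristae genes 2 fell and 1 rose. Beside a median of -0.02 over all genes, the list medians ran from -0.20 for complex V assembly and -0.14 for the citric acid cycle to 0.05 for electron entry and for the regulators and 0.08 for complex IV assembly.

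With time in culture without TPN, 99 of the 135 genes of these lists were lower and 7 higher, or 73.3% and 5.19%, where 52.4% of all genes were lower and 20.1% higher. The lists were not counted with median ratio scaling, with which 33.7% of all genes were lower and 33.2% higher. The share that was lower differed between lists, from 2 of 4 for complex II assembly, 5 of 10 for ATP and ADP exchange and 4 of 6 for complex V assembly to 6 of 7 for complex III assembly and 17 of 19 for complex I assembly. Their medians ran from -0.49 for complex III assembly to -0.20 for ATP and ADP exchange, beside -0.18 over all genes. Among the regulators, 9 of 15 were lower, TFAM, which packages mitochondrial DNA, from a mean of 79.0 FPKM to 51.6 FPKM (log2 fold change -0.62, SE 0.05). PPARGC1A, the coactivator PGC-1alpha that is known to promote mitochondrial biogenesis, was the gene of this list that was higher, at 5.01 FPKM and 9.37 FPKM (log2 fold change 0.89, SE 0.07).

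**Figure D5:**
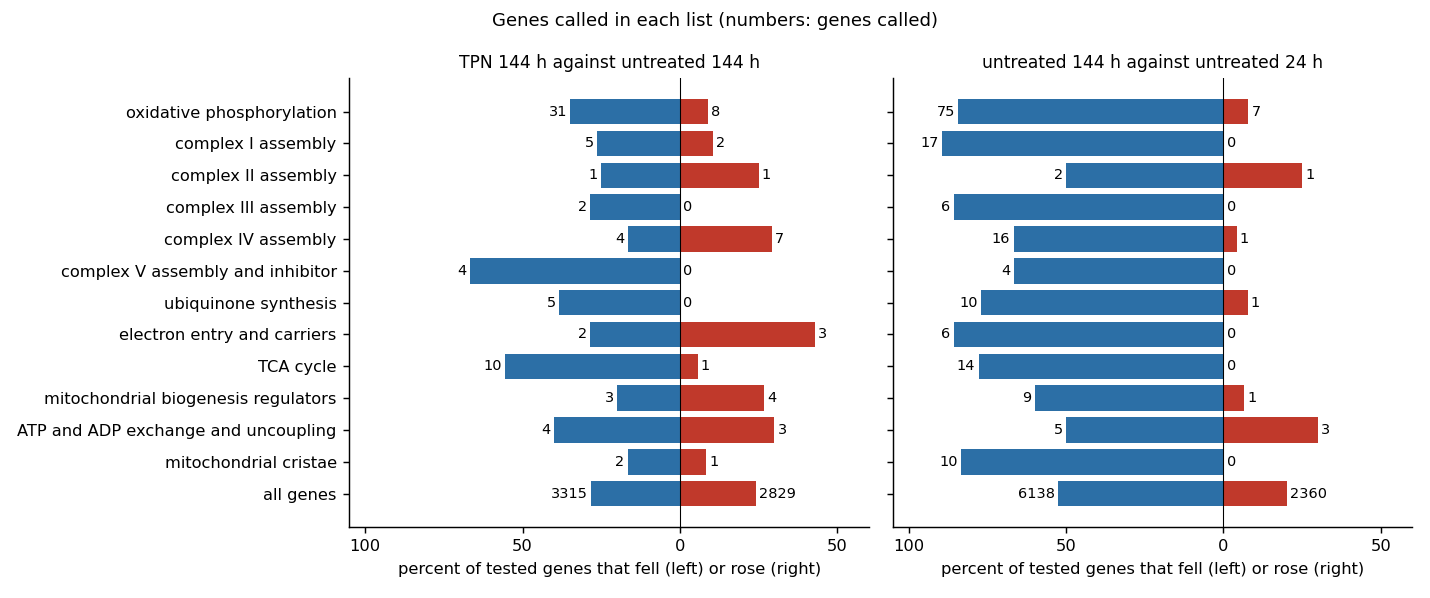
Percent of tested genes of each list that fell (blue, left) or rose (red, right) at an adjusted p below 0.05, with the number of genes at each bar, for TPN at 144 h and for time in culture. At 144 h of TPN the complex V assembly list has 4 genes that fell and 0 that rose, the complex IV assembly list has 7 that rose, and the bars of time in culture reach farther to the left than to the right in all lists.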

How the data were processed

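RNA of 12 libraries, 3 in each of 4 groups taken from the labels, was sequenced from strand-specific libraries on the DNBSEQ platform. The authors filtered the reads with SOAPnuke, mapped them with HISAT2 2.0.4 to GRCh38.p13 and with Bowtie2 2.2.5 to reference transcripts, per the labels and the study's methods, and calculated FPKM values with RSEM. The values used are these deposited FPKM values. They are scaled within a library, so a change in a few abundant genes moves all others. Read counts were not used here.

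The 11713 genes whose FPKM averaged 0.5 or more across the 12 libraries entered limma 3.58.1 (R 4.3.3) as log2(FPKM + 0.1), in 1 model of the 4 groups with an intensity trend. The added 0.1 understates changes of low genes. Adjustment was that of Benjamini and Hochberg over all genes tested, and a gene was called at an adjusted p below 0.05. The study's threshold of 0.58 on the absolute log2 fold change was also applied. The study describes the libraries of a group as independent experiments, which the labels do not state. The largest share of identical values between 2 libraries was 0.82%, so none was counted as a duplicate. The procedure was tested on simulated data.

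The genes, lists and tests were chosen with earlier results of these data known. Named were genes past both thresholds, the 3 largest rises and falls per comparison, the largest change per complex and comparison, the most abundant gene per complex, isoforms, genes without a complex, genes under the filter and, of other lists, up to 3 genes with the smallest p. Depth was estimated by the slope of FPKM steps of 32 low genes on GENCODE transcript length (95% interval 1.5e+07 to 2.1e+07 fragments), and the interval covers that slope only. Promoters were taken from RefSeq, 1 per gene. The values of 1 gene are not reported here. Alternatives changed the pseudocount, filter, scaling, model, and length and GC trend, added a replicate block, and left out each library in turn. Python 3.11.15 with numpy 2.4.6, pandas 2.3.3 and matplotlib 3.10.9 were used for the tables and plots.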

Additional observations from a re-analysis of the deposited data

Results flagged for a closer look

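For 15 of the 89 genes the response to TPN at 144 h differed from that at 24 h in the limma test of the difference itself, which used all 12 libraries. Such differences were less frequent here than among all genes tested. A negative difference passed for 13.5% of the 89 genes and 16.3% of all genes, and a positive one for 3.37% and 14.1%. The differences in log2 fold change (144 h minus 24 h) were -0.47 for CYC1, -0.39 for NDUFA4L2, -0.34 for COX11, -0.26 for NDUFB1, -0.24 for NDUFS7, -0.23 for ATP5F1B and -0.22 for NDUFB10. They were -0.19 for NDUFA4, -0.18 for NDUFS3, -0.18 for ATP5F1C, -0.15 for SDHC and -0.14 for ATP5F1A. They were 0.18 for NDUFB2, 0.20 for NDUFS5 and 0.32 for PPA2. Their adjusted p values ran from 6.44e-05 for CYC1 to 0.0449 for NDUFS7. In 11 of the 15 the call was kept in every alternative tried, and those of NDUFS5, NDUFA4, ATP5F1A and NDUFS7 were lost in some, with adjusted p values of up to 0.0616, 0.0982, 0.105 and 0.103. For NDUFS5 this was the removal of the length and GC trend, and for the other 3 genes most left-out libraries were among these alternatives. The groups of 3 libraries were too small for a check of single outlying libraries.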

How the results depend on the processing

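At 24 h, 1 gene fell as reported, 4 with libraries scaled to the same sum, 0 without the intensity trend, and 2 with a filter at 5 FPKM, quantile normalization, only the groups compared, the replicate block, or the replicate block with the length and GC trend removed, while 1 gene rose without the intensity trend. Leaving out single libraries gave 1 to 2 genes that rose and 0 to 3 that fell at 24 h (1 and 0 without untreated replicate 1 or TPN replicate 1, 1 and 3 without untreated replicate 2, and 2 and 2 without TPN 144 h replicate 3), and 6 to 10 and 23 to 33 at 144 h. Of all genes, 5.80% fell at 24 h with libraries scaled to the same sum, 5.22% with quantile normalization and 5.51% with the replicate block. The cause of these shifts in the counts was not tested. For the difference between times, 19 genes passed with a negative value with the length and GC trend removed, with and without the replicate block. Of all genes, 19.9% did so with the trend removed and without the block. For time in culture, 14, 11 and 13 genes rose with median ratio scaling, quantile normalization and the length and GC trend removed (13 also with the replicate block). Of all genes, 33.2%, 29.1% and 29.5% rose with these settings. With median ratio scaling 44 of the 89 genes fell, beside 33.7% of all genes. In the same order of settings the median log2 fold change of the 89 genes was -0.12, -0.16 and -0.18 (-0.18 with the block). There 8 genes turned in sign with median ratio scaling, 3 with quantile normalization and 4 with the trend removed, and 0 of them passed the test. Among the named and examined genes these were, with median ratio scaling, UQCRH (0.0485), COX7B (0.0119), ATP6AP1 (0.0554), ATP5F1A (0.0239) and NDUFS1 (0.0116), ATP6AP1 also with quantile normalization (0.0673) and with the trend removed with and without the block (0.0475), and ATP5F1A with the trend removed with and without the block (0.00572).

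The replicate block gave 10 genes that rose and 33 that fell at 144 h, where 24.1% and 28.2% of all genes did. For time in culture it gave 7 and 75, where 20.1% and 52.4% of all genes did. Samples of the same number correlated in their deviations by -0.083 to 0.103 at 24 h, by -0.013 to 0.0559 at 144 h and by 0.0202 to 0.151 between the untreated groups. In the last, each 24 h library correlated best with its own number, but not every 144 h library did, and not every pair was above 0.1, so the numbers were not taken as pairs. Leaving out the mitochondrially encoded genes before scaling was not run, because the table lists 0 of them. Of the named and examined genes called at 144 h, 23 of 33 kept the call in every alternative run, and 0 turned in sign. The filter leaves 5 genes untested, and at about 8.9 fragments per FPKM on a typical transcript their values rest on few fragments.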
